A study of Mus musculus with 8 samples.

Results

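The genes described here are those of fatty acid synthesis and fatty acid oxidation, 44 genes that were listed by name, with synthesis, elongation and desaturation (13 genes) kept apart from activation to acyl-CoA (6 genes) and from the carnitine shuttle, β-oxidation and steps tied to it (25 genes). A gene was read from the probe sets, the groups of short probes that measure a transcript, whose only annotated symbol was that gene, and where there were several the one with the highest mean over all arrays stood for it. Of 18193 genes named in this way on the array, 43 of the 44 members were among them, with Acsl1 not analysed here, and 41 members were among the 11364 genes past the filter of an intensity over 100 on at least 1 array. Ehhadh and Pdk4 did not pass it.

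RNA of murine neural stem cells (NSCs) derived from ES cells was hybridized to Affymetrix mouse expression arrays, 4 arrays of cultures taken 7 days after X-ray irradiation with 10 Gy (irr) and 4 of cultures that were not irradiated. Both groups are total RNA of whole cultures grown in medium with EGF and FGF2, described as biological quadruplicates. Per the methods, irradiated cultures stayed unsplit with regular renewal of the medium, and the NSCs of the study came mostly from the E14Tg2a ES line, without a statement of the line used on these arrays. The comparison asks how the expression program of NSCs stands a week after DNA damage.

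Cells build saturated fatty acids from malonyl-CoA in the cytosol, lengthen them on the endoplasmic reticulum with enzymes of the Elovl family and place double bonds with the desaturases Scd and Fads. For burning, a fatty acid is joined to CoA by an acyl-CoA synthetase, carried into mitochondria on carnitine and shortened stepwise by the β-oxidation cycle, whose electrons leave through the electron transfer flavoprotein. In the brain, both synthesis and oxidation of fatty acids are known from neural stem and progenitor cells, and astrocytes are the cells best known there for oxidizing fatty acids.

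In all, 17 of the 41 members past the filter were higher in irr NSCs, 11 were lower and 13 missed the threshold (limma, adjusted p under 0.05), and 5 of those called differed at least 2-fold by their fitted values. Oxidation genes were mostly higher, 13 of 23, with 3 lower. Synthesis genes were higher in 3 of 13 cases and lower in 5, and activation genes were higher in 1 of 5 cases and lower in 3. Over all 11364 genes, 40.2% were higher and 37.1% lower at the same threshold, and 8.88% were at least 2-fold higher and 6.16% at least 2-fold lower. Against these shares, 56.5% of the oxidation genes were higher and 13% were lower, 23.1% of the synthesis genes were higher and 38.5% lower. The median log2 fold change was 0.23 for the 23 oxidation genes, -0.055 for the 13 synthesis genes and -0.29 for the 5 activation genes, beside 0.007 over all genes. As these are whole cultures, fewer cells of a type and less RNA per cell cannot be told apart.

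**Figure D1:**
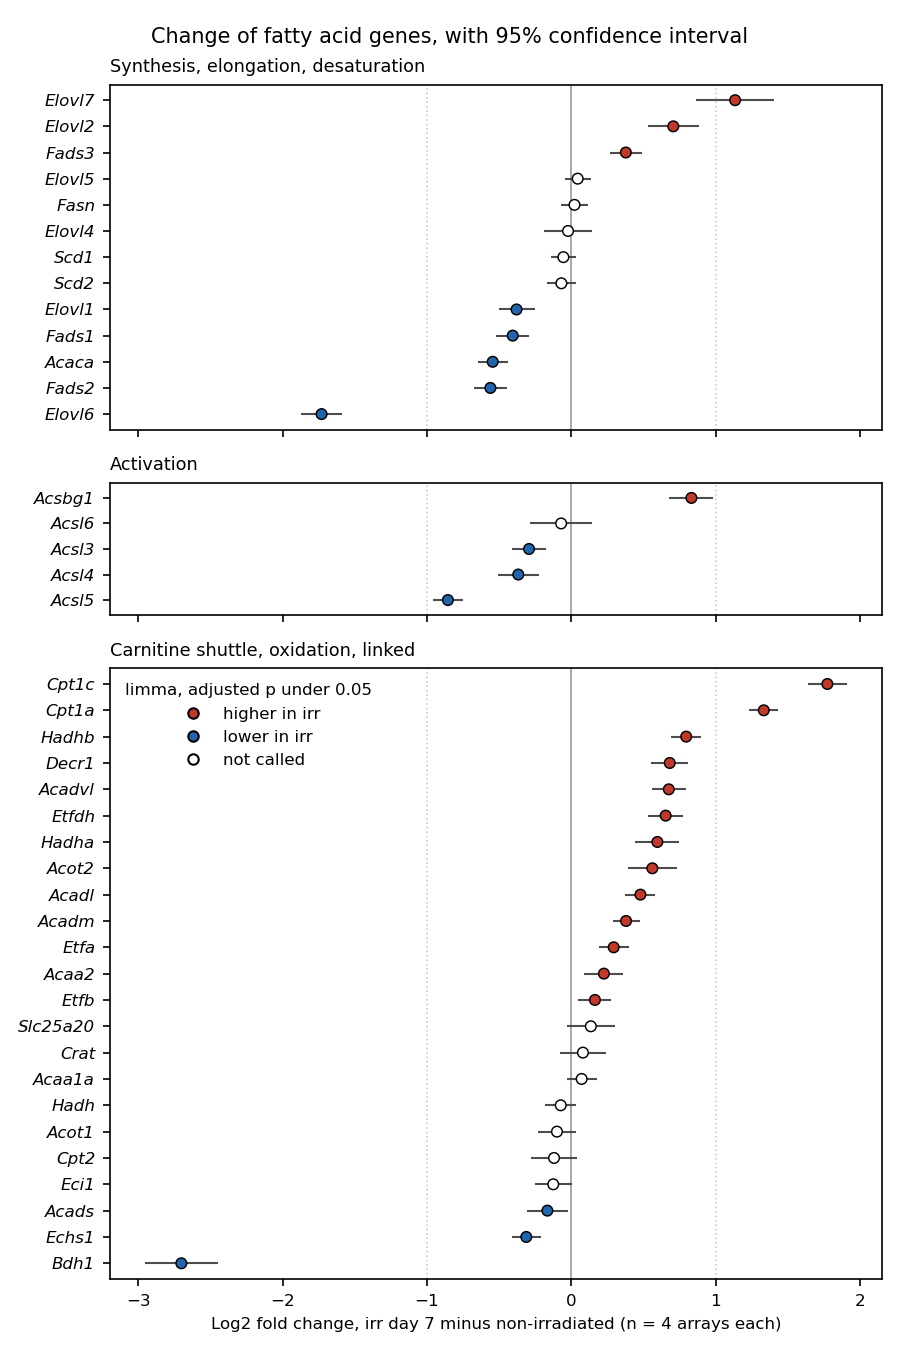
Difference in log2 RMA value between irr day 7 and non-irradiated NSCs (irr minus non-irradiated, 4 arrays each) of the 41 members past the filter, with the 95% confidence interval of the fit as a line. Filled points passed the test (red higher, blue lower in irr NSCs), open points did not, and dotted lines mark a 2-fold change, so that Cpt1c, Cpt1a and Elovl7 lie beyond it on the right and Elovl6 and Bdh1 on the left.

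The arrays had medians of 6.22 to 6.25 on the log2 scale, which follows from RMA, as it sets all arrays to a common distribution. Replicates correlated at 0.991 to 0.997 over the probe sets past the filter. The first principal component of the same probe sets, 92.0% of the variance, separated irr from non-irradiated arrays. The second, 3.68%, set irr arrays 1 and 2 apart from irr arrays 3 and 4. Of the markers of neural stem cells, all 7 passed the filter, 4 higher and 2 lower in irr NSCs, and of 6 astrocyte markers 3 were higher and 2 lower. Of 5 neuron markers past the filter, Tubb3 fell by 0.67, Dcx by 0.27 and Rbfox3 by 0.24, and Syp rose by 0.26. The microglial P2ry12 rose by 0.52, with Aif1, Itgam and Cx3cr1 below the filter, and the endothelial Kdr fell by 0.40, with Pecam1 and Cdh5 below it. Markers of pluripotent and mesenchymal cells stayed below the filter on every array. Array control probe sets for the 3′ and the 5′ end of one mRNA lay further apart in irr NSCs for actin (a gap of 0.51 ± 0.070 on the log2 scale on irr arrays, against 0.26 ± 0.028 on non-irradiated arrays, SD, n = 4 each, two-sided exact permutation p = 0.029, which 4 against 4 arrays cannot go below) and for the transferrin receptor (0.85 ± 0.24 on irr arrays, against 0.35 ± 0.21 on non-irradiated arrays, two-sided exact permutation p = 0.029), and the difference for Gapdh did not pass (-0.065 ± 0.028 on irr arrays, against -0.076 ± 0.042 on non-irradiated arrays, two-sided exact permutation p = 0.71).

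The promoters of 4 genes are shown because these genes carry the main results: Cpt1a and Cpt1c, the members of oxidation with the largest increases, Elovl6, the synthesis gene with the largest decrease, and Hadhb, whose window overlaps that of its partner Hadha. Each is the RefSeq window of GRCm38.p6 from 250 bases before to 50 bases after the start of the gene, read 5′ to 3′ on the strand of the gene. Capitals mark AGGTCA, the half-site that nuclear receptors bind, in the first 3, and GGGCGG, the GC box bound by Sp1, in Hadhb, on either strand (TGACCT and CCGCCC on the other). The windows are chr19:3323051-3323350 (plus strand) for Cpt1a, chr7:44974802-44975101 (minus strand) for Cpt1c, chr3:129532136-129532435 (plus strand) for Elovl6 and chr5:30155003-30155302 (plus strand) for Hadhb.
Cpt1a: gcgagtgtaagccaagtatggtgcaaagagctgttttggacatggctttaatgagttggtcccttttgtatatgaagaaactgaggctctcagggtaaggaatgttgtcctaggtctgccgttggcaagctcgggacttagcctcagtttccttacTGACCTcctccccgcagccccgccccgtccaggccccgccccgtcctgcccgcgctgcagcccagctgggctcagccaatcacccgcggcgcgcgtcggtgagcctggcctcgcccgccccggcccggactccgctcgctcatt
Cpt1c: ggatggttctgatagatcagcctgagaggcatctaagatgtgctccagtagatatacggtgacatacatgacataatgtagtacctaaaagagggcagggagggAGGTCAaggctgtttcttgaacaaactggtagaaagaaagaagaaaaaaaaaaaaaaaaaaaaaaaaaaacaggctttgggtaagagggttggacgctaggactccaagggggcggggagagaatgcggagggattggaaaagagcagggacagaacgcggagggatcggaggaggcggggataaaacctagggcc
Elovl6: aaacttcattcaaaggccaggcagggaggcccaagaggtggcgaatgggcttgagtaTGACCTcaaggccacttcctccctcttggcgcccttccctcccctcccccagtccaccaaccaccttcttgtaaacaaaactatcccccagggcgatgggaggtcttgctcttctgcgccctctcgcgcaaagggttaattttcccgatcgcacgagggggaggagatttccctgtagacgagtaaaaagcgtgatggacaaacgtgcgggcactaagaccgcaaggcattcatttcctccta
Hadhb: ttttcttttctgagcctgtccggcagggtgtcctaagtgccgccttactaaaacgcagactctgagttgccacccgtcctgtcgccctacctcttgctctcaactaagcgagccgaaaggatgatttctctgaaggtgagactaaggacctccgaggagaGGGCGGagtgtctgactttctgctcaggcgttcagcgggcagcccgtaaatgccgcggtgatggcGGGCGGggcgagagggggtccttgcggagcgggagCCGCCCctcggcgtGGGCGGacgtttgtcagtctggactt

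Windows were found for 38 members, 44 windows in all since some genes have more than 1 start, and not for Crat, Acaa2, Fads1, Scd1, Decr1 and Scd2. AGGTCA was found on either strand in 5 of 23 oxidation windows (21.7%; Acadm, Acadvl, Cpt1a, Cpt1c and Echs1) and in 2 of 12 synthesis windows (Elovl1 and Elovl6), beside 16.3% of all 32851 windows of the same length. It stood in genes that were higher and in genes that were lower in irr NSCs. GGGCGG was in 17 of 23 oxidation windows (73.9%), 7 of 12 synthesis windows and 6 of 9 activation windows, beside 35.7% of all windows. TCACNCCAC, a form of the sterol response element, was in none of the 12 synthesis windows, 1 of 9 activation windows (Acsl1) and 1 of 23 oxidation windows (Ehhadh), beside 1.24% of all windows, and the direct repeat of AGGTCA with any single base between was in none of the 44 and in 0.0396% of all. The Hadha and Hadhb windows, on opposite strands, share 228 bases. These are matches of letters and not measured binding.

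Of the genes that build the chain, the one for the first step, Acaca, was lower in irr NSCs, and for Fasn, the synthase that makes palmitate, no difference was detected. Acaca, which makes malonyl-CoA, had log2 values of 9.41 ± 0.055 on irr arrays and 9.96 ± 0.044 on non-irradiated arrays (SD, n = 4 each) and fell by 0.54 (standard error 0.046, adjusted p = 2.9e-06, limma). Fasn had 11.33, 11.29, 11.27 and 11.28 on irr arrays, against 11.27, 11.26, 11.23 and 11.31 on non-irradiated arrays. The groups overlapped, and the 95% interval of its log2 fold change was -0.070 to 0.11.

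Elongases held both the largest decrease and the largest increase of the synthesis genes. Elovl6, which lengthens palmitate to stearate, had log2 values of 9.60, 9.63, 9.41 and 9.59 on the 4 irr arrays, against 11.26, 11.40, 11.30 and 11.20 on the 4 non-irradiated arrays. Every irr array lay below every non-irradiated array by more than a whole log2 unit. The gene was 3.32-fold lower in irr NSCs (log2 fold change -1.73, standard error 0.064, adjusted p = 9.6e-09, limma), and its other probe set past the filter fell by 1.88. Elovl7, an elongase of saturated long chains, had 9.43, 9.37, 9.43 and 9.14 on irr arrays, against 8.19, 8.33, 8.45 and 7.87 on non-irradiated arrays. The groups did not overlap, although non-irradiated replicate 4 lay lower than the other 3. Elovl7 was 2.20-fold higher (1.13, standard error 0.12, adjusted p = 1.4e-05, limma), and all 6 of its probe sets past the filter were called higher. The second brightest rose by 1.23, and the other 4, below an intensity of 100 on every non-irradiated array, were at least 1.23-fold to 2.15-fold higher.

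Elovl2, which lengthens polyunsaturated chains toward those of DHA, had log2 values of 8.51, 8.67, 8.68 and 8.87 on irr arrays, against 7.85, 8.03, 7.96 and 8.07 on non-irradiated arrays. It was higher on every irr array and rose by 0.71 (standard error 0.079, adjusted p = 2.2e-05, limma). Elovl1, the elongase of very long saturated chains, fell by 0.38 (adjusted p = 0.00015, limma). Elovl5, which acts on polyunsaturated chains, had a log2 fold change of 0.044 with a 95% interval of -0.046 to 0.13, and Elovl4, the elongase of ultra-long chains, had -0.023 with an interval of -0.19 to 0.14, neither past the test. For Elovl4, a dimmer probe set fell by 0.69 (adjusted p = 0.00011, limma), with 7.88 ± 0.18 on irr arrays and 8.57 ± 0.12 on non-irradiated arrays (SD, n = 4 each). With the arrays centred on 9 reference genes, of which 2 were themselves called higher and 3 lower, Fasn (0.11) and Elovl5 (0.13) passed the test as higher.

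Of the 5 desaturases, Fads1 and Fads2 were lower and Fads3 was higher in irr NSCs, and the test was not passed by the brightest probe sets of Scd1 and Scd2. Fads2, the Δ6 desaturase at the entry to polyunsaturated fatty acids, had log2 values of 10.95, 11.03, 11.06 and 11.07 on irr arrays, against 11.62, 11.55, 11.51 and 11.67 on non-irradiated arrays. All irr arrays lay below all non-irradiated arrays, and the gene fell by 0.56 (standard error 0.051, adjusted p = 5e-06, limma), and its dimmer probe sets fell by 1.07 and by 0.66. Fads1, the Δ5 desaturase of the same path, fell by 0.41 (adjusted p = 4.4e-05, limma), and Fads3, a desaturase of sphingoid bases, rose by 0.38 (adjusted p = 5.8e-05, limma).

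Scd1 and Scd2, which make monounsaturated from saturated chains, read differently by different probe sets. The brightest Scd1 probe set had 12.69, 12.71, 12.68 and 12.72 on irr arrays, against 12.75, 12.77, 12.71 and 12.79 on non-irradiated arrays, overlapping groups with a log2 fold change of -0.055 (95% interval -0.14 to 0.034). A dimmer Scd1 probe set, taken up after its values were seen, had 8.001, 7.978, 8.096 and 7.982 on irr arrays, against 9.648, 9.629, 9.640 and 9.611 on non-irradiated arrays. On that probe set every irr array lay below every non-irradiated array, and the value fell by 1.62 (standard error 0.044, adjusted p = 1.4e-09, limma). For Scd2, the brightest probe set gave -0.069 (95% interval -0.17 to 0.032) and the dimmer ones gave -0.27 and -1.05, both past the test. Only 1.86% of all probe sets were brighter than the brightest of Scd1 and 0.317% brighter than that of Scd2. When all probe sets of each gene were averaged in place of taking the brightest, Scd1 (-0.84), Scd2 (-0.46) and Elovl4 (-0.36) were called lower, so that 8 of the 13 synthesis genes were lower in irr NSCs. The part in these differences of brightness near the top of the scale, of sequence shared by these close paralogs, or of the wider gap between 3′ and 5′ control probe sets on irr arrays was not tested.

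**Figure D2:**
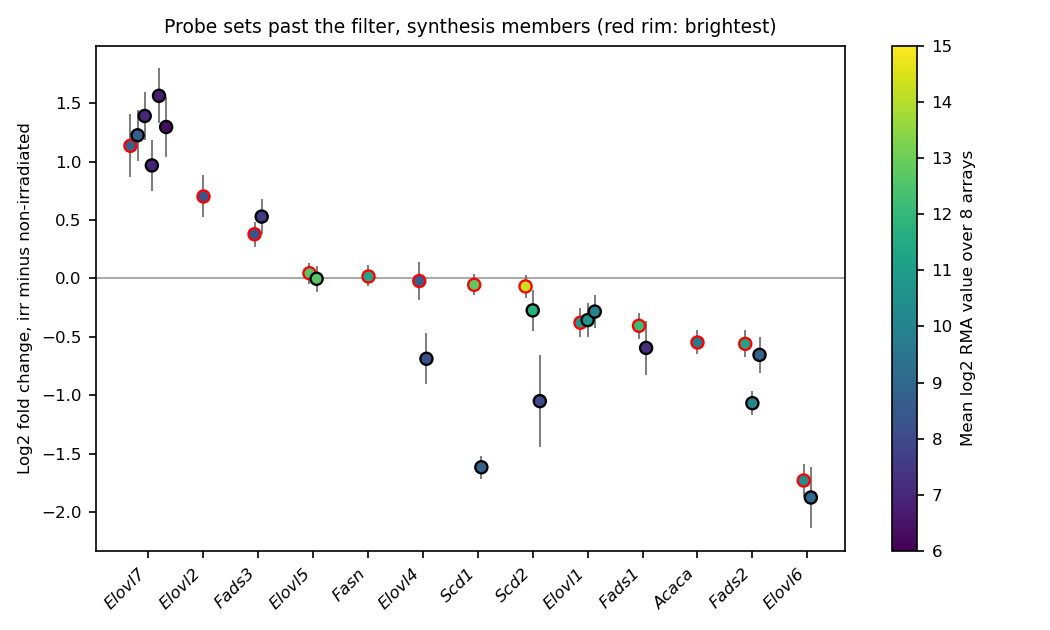
Difference in log2 RMA value (irr minus non-irradiated, 4 arrays each) of every probe set past the filter for the 13 synthesis genes, with its 95% confidence interval as a line. Colour gives the mean log2 RMA value over the 8 arrays and a red rim marks the brightest probe set of a gene; the probe sets of Elovl7 all lie above 0 (4 of them with non-irradiated arrays below an intensity of 100, so of uncertain size) and those of Elovl6 all below -1, whereas those of Scd1 lie at -0.055 and -1.62.

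Among the genes of activation to acyl-CoA, 3 of the 4 for long-chain synthetases past the filter were lower in irr NSCs, and Acsbg1 was higher. Over all genes, 37.1% were lower and 40.2% higher. Acsl5, a synthetase of the mitochondrial outer membrane and endoplasmic reticulum, had log2 values of 9.24, 9.18, 9.29 and 9.34 on irr arrays, against 10.11, 10.13, 10.15 and 10.08 on non-irradiated arrays. The groups stood well apart, and Acsl5 was 1.81-fold lower (-0.86, standard error 0.047, adjusted p = 1.2e-07, limma). Acsl4, which prefers arachidonic acid, had 9.44, 9.59, 9.37 and 9.38 on irr arrays, against 9.72, 9.92, 9.83 and 9.79 on non-irradiated arrays. The highest irr array stayed below the lowest non-irradiated array, and the gene fell by 0.37 (standard error 0.064, adjusted p = 0.00048, limma), and its other probe sets fell by 0.26 and by 1.25. Acsl3, tied to lipid droplets, fell by 0.29 (adjusted p = 0.00069, limma), with a range of -0.46 to -0.08 over its 3 probe sets. Acsl6, the synthetase known from neurons and astrocytes, had -0.071 (95% interval -0.29 to 0.14) and did not pass.

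Acsbg1, the bubblegum synthetase of very long chains in the brain, was the only activation gene that was higher. It had log2 values of 10.42, 10.36, 10.60 and 10.65 on irr arrays, against 9.71, 9.62, 9.69 and 9.69 on non-irradiated arrays. The groups did not overlap, and the gene was 1.78-fold higher (0.83, standard error 0.068, adjusted p = 2.1e-06, limma), with irr arrays 3 and 4 above irr arrays 1 and 2.

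The largest increases among the 41 members were those of Cpt1c and Cpt1a, forms of carnitine palmitoyltransferase 1. Cpt1a, the widely expressed form, which catalyses the rate-limiting entry of acyl chains into mitochondria, had log2 values of 12.04, 12.03, 11.94 and 11.91 on irr arrays, against 10.66, 10.63, 10.66 and 10.64 on non-irradiated arrays. The replicates spanned little of the distance between the groups, and Cpt1a was 2.52-fold higher (1.33, standard error 0.045, adjusted p = 5.2e-09, limma), with 1.32 and 1.35 by its other probe sets. Cpt1c, the form of neurons, which sits on the endoplasmic reticulum and has little catalytic activity, had 10.68, 10.61, 10.72 and 10.75 on irr arrays, against 9.02, 8.78, 8.94 and 8.93 on non-irradiated arrays. Every irr array was above every non-irradiated array, and Cpt1c was 3.42-fold higher (1.77, standard error 0.060, adjusted p = 5.3e-09, limma).

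Further along the shuttle, no gene passed the test by its brightest probe set. Slc25a20, the carnitine-acylcarnitine carrier of the inner membrane, had a log2 fold change of 0.14 (95% interval -0.033 to 0.30), Cpt2, which returns the chain to CoA in the matrix, had -0.12 (-0.28 to 0.040) and Crat, carnitine acetyltransferase, had 0.080 (-0.078 to 0.24). These calls rested on the choice of probe set and arrays. A dimmer probe set of Slc25a20 was higher by 0.46, past the test. Another of Crat was higher by 0.46 (adjusted p = 3e-05, limma), with 9.11 on irr arrays and 8.65 on non-irradiated arrays. It was almost as bright over all arrays as the one chosen (8.93 and 8.85), whose identifier marks a possible match to other transcripts. Cpt2 was called lower without irr array 4 (-0.17, adjusted p = 0.043, limma).

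**Figure D3:**
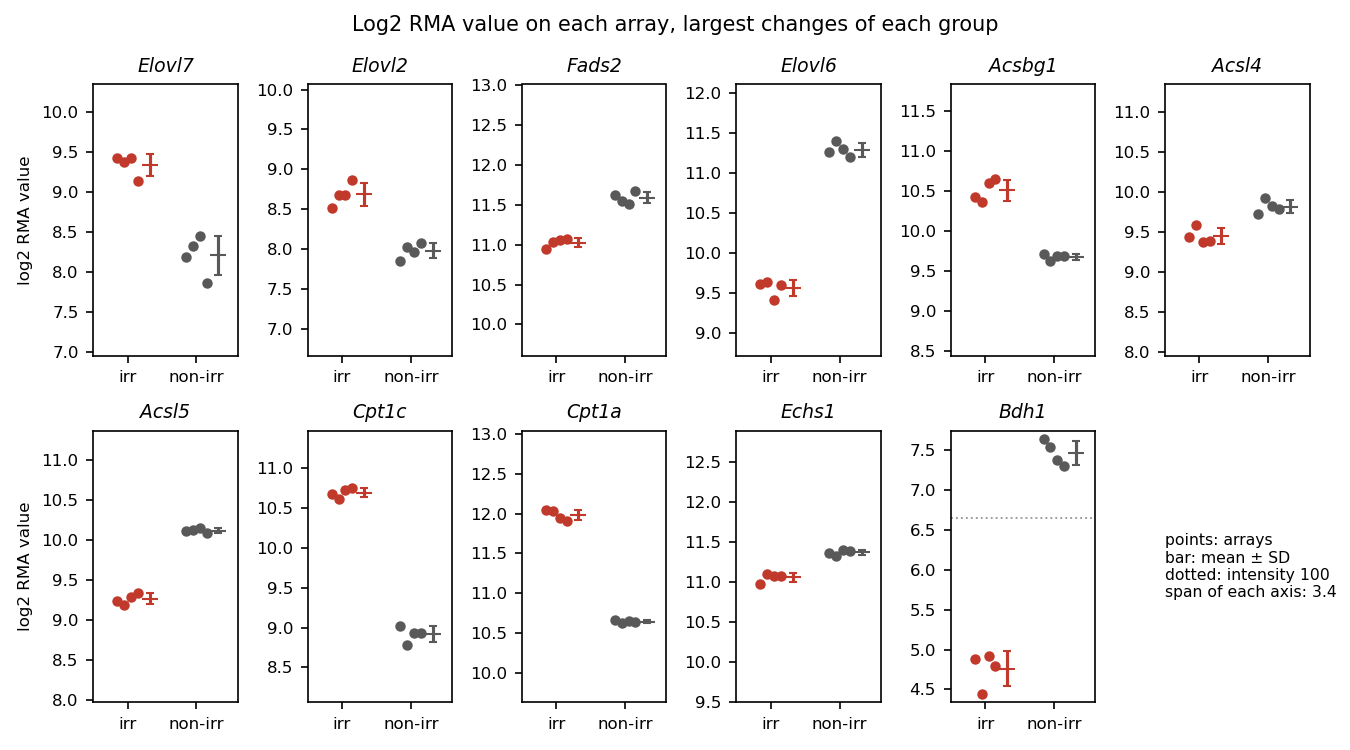
Log2 RMA values on each array for the 11 members with the largest changes of their group, irr (red, left) and non-irradiated (grey, right) in each panel, with mean ± SD of 4 arrays beside the points. All axes span the same range of log2 values, and the dotted line for Bdh1 is an intensity of 100. The groups overlap in none of the 11 panels, which follows from picking these members for the size of their change.

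In the mitochondrial β-oxidation cycle, 6 of 9 genes were higher in irr NSCs (66.7%) and 2 lower (22.2%), beside 40.2% and 37.1% over all genes. None differed by 2-fold, and the median was 0.38. Of the acyl-CoA dehydrogenases of the first step that are members, those for longer chains were higher. Acadvl, for very long chains, had log2 values of 11.22 ± 0.081 on irr arrays and 10.55 ± 0.049 on non-irradiated arrays and rose by 0.68 (adjusted p = 1.6e-06, limma), Acadl, for long chains, rose by 0.48 (adjusted p = 7.6e-06, limma), and Acadm, for medium chains, by 0.38 (adjusted p = 1.9e-05, limma). Acads, for short chains, fell by 0.17 (adjusted p = 0.037, limma), and this call was lost with no intensity filter, with the arrays centred on reference genes (-0.078), and without irr array 1 or 2 or any one non-irradiated array (-0.17 to -0.12). Differences between these dehydrogenases were not tested.

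The genes of both subunits of the trifunctional protein, which carries out the following steps for long chains, were higher in irr NSCs. Hadha, the α subunit with hydratase and dehydrogenase activity, had log2 values of 10.87, 11.06, 11.11 and 11.16 on irr arrays, against 10.50, 10.52, 10.39 and 10.40 on non-irradiated arrays. Hadhb, the β subunit with thiolase activity, had 12.20, 12.20, 12.25 and 12.34 on irr arrays, against 11.47, 11.43, 11.43 and 11.49 on non-irradiated arrays. For both, every irr array was above every non-irradiated array, with increases of 0.60 for Hadha (standard error 0.068, adjusted p = 2.4e-05, limma) and 0.80 for Hadhb (standard error 0.047, adjusted p = 2.1e-07, limma).

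Among the members, the genes of the single enzymes that serve shorter chains at the same steps were lower, not called or slightly higher. Echs1, the short-chain hydratase, had log2 values of 10.98, 11.11, 11.08 and 11.07 on irr arrays, against 11.36, 11.33, 11.40 and 11.39 on non-irradiated arrays. All irr arrays were below all non-irradiated arrays, and the gene fell by 0.31 (standard error 0.045, adjusted p = 0.00013, limma). Hadh, the dehydrogenase of medium and short chains, had -0.073 (95% interval -0.18 to 0.033) and did not pass. Acaa2, the thiolase, rose by 0.23 (adjusted p = 0.0066, limma), a call lost with the mean of its probe sets (0.14), with plain probe set identifiers (0.10) and without irr arrays 3 and 4 (0.13).

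All 3 genes of electron transfer from the dehydrogenases were higher in irr NSCs, beside 40.2% of all genes. Etfdh, which passes the electrons to ubiquinone, had 11.39 ± 0.094 on irr arrays and 10.73 ± 0.034 on non-irradiated arrays (SD, n = 4 each) and rose by 0.65 (standard error 0.054, adjusted p = 2.5e-06, limma). Etfa and Etfb, the subunits of the electron transfer flavoprotein, rose by 0.29 (adjusted p = 0.00025, limma) and 0.16 (adjusted p = 0.015, limma), and Etfb was not called without irr arrays 3 and 4 (0.12). Of the auxiliary enzymes for unsaturated chains, Decr1, a dienoyl-CoA reductase, rose by 0.68 (standard error 0.057, adjusted p = 2.7e-06, limma), and Eci1, an enoyl-CoA isomerase, had -0.13 (95% interval -0.25 to 0.002).

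Peroxisomal genes among the members were little measured. Ehhadh, the peroxisomal bifunctional enzyme, stayed at log2 values of 3.72 to 3.83 on irr arrays and 3.48 to 3.58 on non-irradiated arrays, below the filter. Acaa1a, the peroxisomal thiolase, had a log2 fold change of 0.071 (-0.033 to 0.18), called higher (0.16, adjusted p = 0.0095, limma) with the arrays centred on reference genes, and shares much of its sequence with Acaa1b.

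Among genes linked to oxidation, Bdh1, the mitochondrial enzyme that interconverts the ketone bodies acetoacetate and β-hydroxybutyrate, had log2 values of 4.88, 4.44, 4.92 and 4.80 on irr arrays, against 7.63, 7.54, 7.37 and 7.31 on non-irradiated arrays. All 4 irr arrays were below an intensity of 100 (6.64 on the log2 scale) and all 4 non-irradiated arrays above it, so that the gene was at least 1.76-fold lower in irr NSCs, that is, the non-irradiated mean over that intensity (adjusted p = 1.9e-08, limma; fitted log2 fold change -2.70). Acot2, a mitochondrial acyl-CoA thioesterase, rose by 0.56 (adjusted p = 8.8e-05, limma), and Acot1, its cytosolic neighbour of near-identical sequence, had -0.100 (-0.23 to 0.034), and signal of the one on probes of the other is possible. Pdk4, the kinase that restrains pyruvate dehydrogenase when fatty acids are burned, stayed at 3.85 to 4.27 on irr arrays and 3.65 to 3.83 on non-irradiated arrays, below the filter.

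**Figure D4:**
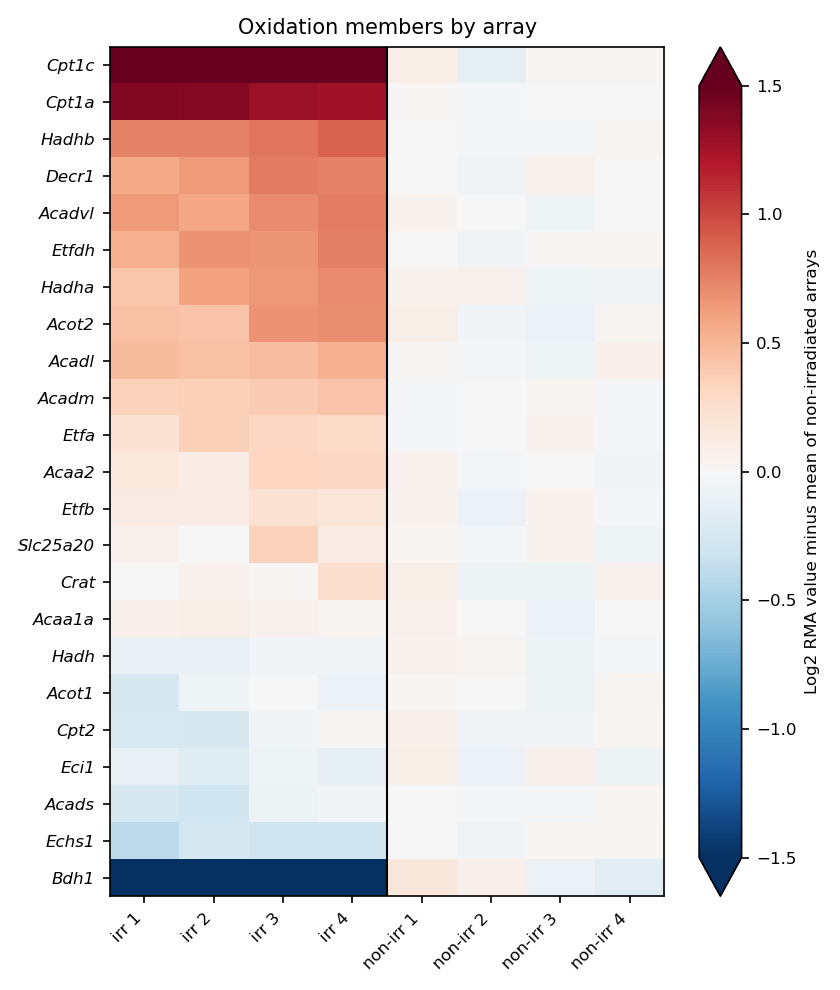
Log2 RMA value of the 23 oxidation genes past the filter on each array, minus the mean of the 4 non-irradiated arrays, ordered by fold change. Columns are arrays, irr left and non-irradiated right, and the colour scale ends at 1.5 in both directions, which Cpt1c and Bdh1 exceed; irr arrays 3 and 4 are on average above irr arrays 1 and 2 for 21 of the 23 genes.

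Within the irr group, the mean of arrays 3 and 4 was above that of arrays 1 and 2 for 21 of the 23 oxidation genes, for 11 of the other 18 members and for 65.3% of all genes. Without irr arrays 3 and 4, a setting chosen after seeing the data, 11 oxidation genes were higher and 4 were lower. Markers of adipocytes also moved between the groups: of 5 such markers, Adipoq and Cidec passed the filter and were higher, Lep and Retn stayed below it and Plin1 was not analysed, and the summed intensity of the measured ones was 500 to 632 on irr arrays and 161 to 186 on non-irradiated arrays. Adipoq had 8.37 ± 0.14 on irr arrays and 4.31 ± 0.32 on non-irradiated arrays, and all non-irradiated arrays lay below an intensity of 100. The astrocyte water channel Aqp4 had 11.35 ± 0.099 on irr arrays and 5.92 ± 0.12 on non-irradiated arrays. Aldh1l1 rose by 0.83 and S100b by 0.19, and Gfap fell by 0.18 around the limit of the filter. Aldoc, the brightest of the 6 astrocyte markers, had 12.71 ± 0.083 on irr arrays and 13.44 ± 0.037 on non-irradiated arrays and fell by 0.73. The summed intensity of the 6, 10060 to 10870 on irr arrays and 12000 to 12650 on non-irradiated arrays, is mostly that of Aldoc. The part of these cell type markers in the oxidation genes was not tested.

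The shift of related members against each other was measured within each array as the difference of their log2 values, for 7 pairs. Elovl5 minus Elovl6 was 3.14 ± 0.086 on irr arrays and 1.37 ± 0.10 on non-irradiated arrays (SD, n = 4 each), so the difference grew by 1.77 (two-sided exact permutation p = 0.029, as low as 8 arrays can give, and 0.05 adjusted over the 7 pairs). Cpt1a minus Cpt1c was 1.29 ± 0.12 on irr arrays and 1.73 ± 0.090 on non-irradiated arrays, a change of -0.44. Hadha minus Hadhb changed by -0.20 and Fads1 minus Fads2 by 0.15, both also at an exact p of 0.029 and 0.05 adjusted. None of these 4 is under the threshold of 0.05 after adjustment, which this number of arrays could not bring about with fewer than 5 such pairs. Etfa minus Etfb changed by 0.13 (exact p = 0.057), Acsl3 minus Acsl4 by 0.075 (exact p = 0.40) and Scd1 minus Scd2 by 0.014 (exact p = 0.57), all before adjustment.

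Other genes of the same pathways and their regulators, from lists that hold none of the members, gave 35 higher and 21 lower among 63 measured. The shares over all genes were 40.2% higher and 37.1% lower. Of 14 measured genes around synthesis, 5 were higher and 7 lower (median -0.15). The citrate-cleaving enzyme Acly (-0.63), the citrate carrier Slc25a1 (-0.36) and the elongation reductase Tecr (-0.37) were lower, and the NADPH-producing malic enzyme Me1 (0.73) was higher. Thrsp, a lipogenic regulator, had 10.08, 10.08, 10.15 and 10.14 on irr arrays, against 8.96, 8.80, 8.99 and 8.84 on non-irradiated arrays, with no overlap, and rose by 1.22 (adjusted p = 2.8e-08, limma). Mecr, of mitochondrial fatty acid synthesis, fell by 0.81 and Hacd2, the dehydratase of elongation, rose by 0.75. Acly, Slc25a1, Tecr and Me1 were picked for their roles after their values were seen.

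Of 28 measured genes around oxidation, 16 were higher (57.1%), 6 of them at least 2-fold by fitted values, and 9 lower (32.1%, median 0.25). The shares over all genes were 40.2% higher, 8.88% at least 2-fold higher and 37.1% lower. Bdh2, a cytosolic dehydrogenase of the same enzyme family as Bdh1, had 8.80, 8.93, 9.06 and 8.85 on irr arrays, against 6.75, 6.84, 7.10 and 6.83 on non-irradiated arrays. The groups did not overlap, and the gene was 4.07-fold higher (adjusted p = 1.9e-08, limma), opposite to Bdh1. Acot7, the main acyl-CoA thioesterase of neurons, fell by 1.52 (adjusted p = 1.3e-08, limma). Acaa1b had a fitted log2 fold change of 1.497, but was above an intensity of 100 on 1 array only, and the size of its change is uncertain. Around activation, 3 of 6 measured genes were higher and 2 lower (median 0.18), with Slc27a1, a fatty acid transporter with synthetase activity, higher by 0.97, Slc27a4, its relative, higher by 0.27 and Acss1, the mitochondrial acetyl-CoA synthetase, lower by 0.55.

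Regulators of these pathways were higher in 11 of 15 measured cases (73.3%) and lower in 3 (20.0%), with a median of 0.40, beside 40.2% and 37.1% over all genes. Ppargc1a, the PGC-1α coactivator of mitochondrial and oxidative genes, had log2 values of 9.68, 9.44, 9.06 and 8.85 on irr arrays, against 6.53, 6.81, 6.97 and 6.12 on non-irradiated arrays. Its SD was 0.37 in both groups, yet every irr array was above every non-irradiated array, and the gene was 6.28-fold higher (2.65, standard error 0.21, adjusted p = 2e-06, limma), with irr arrays 3 and 4 the lowest of the irr arrays. Pparg, the fatty acid receptor of adipocytes, was below an intensity of 100 on all non-irradiated arrays and at least 1.20-fold higher on irr arrays (adjusted p = 9.7e-08, limma), and Ppara stayed below the filter. Srebf2, the sterol-responsive factor of cholesterol synthesis, had 9.28, 9.32, 9.47 and 9.39 on irr arrays, against 10.64, 10.48, 10.52 and 10.53 on non-irradiated arrays, without overlap, and fell by 1.17 (adjusted p = 5e-08, limma). Srebf1, its relative that drives fatty acid synthesis, rose by 0.51 (adjusted p = 7.2e-05, limma); it was added to those named after its value was seen.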

How the data were processed

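RNA of 4 irr (day 7 after 10 Gy) and 4 non-irradiated cultures of ES-derived NSCs was measured on arrays. Intensities were read in GCOS, and the table the authors deposited holds log2 values from RMA, which subtracts background, sets all arrays to a common distribution by quantiles and summarizes the probes of a probe set. It has 45101 probe sets, 64 of them controls. The GCOS and RMA versions are not given in the sources used here. Detection calls were not used.

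Probe sets were named from the platform annotation: 34958 carry 1 symbol, 932 several and 9211 none, and only the first kind was used for genes, 87 of them for the members. Probe sets over an intensity of 100 on at least 1 array (21919) entered a linear model in limma (version 3.58.1, R 4.3.3; moderated, two-sided) with Benjamini-Hochberg adjustment over all of them, and called at an adjusted p under 0.05, without a covariate. Each gene is its brightest probe set over the 8 arrays; 8 of those of the members have identifiers that mark a possible match to other transcripts. Precision is limited by the number of arrays. The limma p-values set a difference against the spread between cultures within both groups, moderated over all probe sets tested. Exact permutation p-values rest on the arrangements of the 8 arrays. Pairs of members were compared by exact permutation of per-array differences (scipy 1.17.1). The methods also asked for a 2-fold change, given here as a second count. The procedure was also run on simulated arrays in which few probe sets were changed, each by at least 2-fold. In the data here most genes were called and most members changed by less, a setting that run does not cover.

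Array values were named for members with at least a 2-fold change and for the 2 largest increases and decreases of synthesis, activation and oxidation, and for each list of other genes the 3 with the largest changes, apart from those named as chosen after seeing values and from Fasn, Hadha, Hadhb and the brightest Scd1 probe set, whose array values were added with their changes known. The members, lists and rules were chosen with earlier results of these data known. Deviations of same-numbered arrays correlated at 0.043, 0.38, -0.21 and 0.51 for numbers 1 to 4, against -0.48 to 0.38 for arrays of different number. These values do not settle whether the numbers mark pairs. The main fit did not use them as pairs, and a fit with a replicate block is among the alternatives. Alternatives were other filters, array centring, trend and robust moderation, array weights, a replicate block, leaving out each array, other probe set choices and other thresholds; leaving out irr arrays 3 and 4 together was added after seeing the data. Promoter windows are from RefSeq (GRCm38.p6). Figures were drawn with matplotlib 3.10.9.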

Additional observations from a re-analysis of the deposited data

Results flagged for a closer look

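In 3 of 82 groups of 4 arrays (41 members, both groups) 1 array stood apart from the other 3 by more of the group's range than Dixon's 95% critical value for 4 samples, where chance alone gives about 5% of groups. Elovl6 had 9.412 on irr replicate 3, against 9.593 to 9.629 on the other irr arrays, all below the non-irradiated arrays. Acsl3 had 10.98 on irr replicate 1, against 10.841 to 10.859 on the other irr arrays. Acadm had 11.413 on non-irradiated replicate 3, against 11.357 to 11.361 on the other non-irradiated arrays, a distance far smaller than that to the irr arrays.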

How the results depend on the processing

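Of 816 values of the 41 members under the alternatives, 768 kept their call or lack of one, 32 lost the call and 16 gained one. No called direction turned. Some differences that were not called changed sign, such as Scd1 (0.033) and Scd2 (0.019) with the arrays centred on reference genes. Of the 41 members, 28 had the same call under every alternative that could be run for them, the test against a 1.5-fold change aside. Of these 28, Bdh1 and Acsl6 drop out at an intensity over 200, which leaves 2 lower oxidation genes, and Elovl1 has no plain probe set identifier, which leaves 4 lower synthesis genes. Asking for a 2-fold change as well left 1 higher and 1 lower synthesis gene, 0 higher and 0 lower activation genes, 2 higher and 1 lower oxidation genes, and 10 higher and 2 lower genes of the other lists; a test against a 1.5-fold change left 1 higher and 1 lower synthesis gene, 1 higher and 1 lower activation gene, 3 higher and 1 lower oxidation genes, and 16 higher and 3 lower genes of the other lists. Both ask for more than a difference from 0. Centring on reference genes, which shifts all values by 0.088, gave 5 higher synthesis genes, 16 higher and 2 lower oxidation genes (Slc25a20, Crat and Acaa1a gained a call, Acads lost it) and 36 higher and 17 lower genes of the other lists, and moved the share of higher among called probe sets to 59.4%, against 50.6%. The 9 reference genes were Actb, Hprt, Tbp, Rpl13a, Sdha, Ywhaz, Pgk1, Gusb and Polr2a. Of them, 3 were themselves called lower (Pgk1 by 0.66, Hprt by 0.38, Actb by 0.13) and 2 higher (Gusb by 0.22, Sdha by 0.20). The calls gained and lost under this centring therefore depend on genes that differed between the groups. The mean of all probe sets gave 8 lower synthesis genes, with Scd1 minus Scd2 at -0.37 and Acsl3 minus Acsl4 at 0.35 (exact permutation p = 0.029 for both) and Hadha minus Hadhb at -0.044 (exact permutation p = 0.34); the cause was not tested. With a replicate block, 13 oxidation genes were higher and 4 lower, as Eci1 was called (-0.13, adjusted p = 0.043, limma); counts for synthesis (3 higher, 5 lower) and activation (1 higher, 3 lower) were those without the block, and differences of pairs cannot move under it. Without irr arrays 3 and 4, 11 oxidation genes were higher and 4 lower. Only 4 arrays a group and the intensity filter limit what can be measured, and Ehhadh and Pdk4 were not tested in the main fit. With no intensity filter, 15 oxidation genes were higher and 2 lower. Ehhadh and Pdk4 were then added as higher, far below an intensity of 100 on all arrays, so of uncertain size, and Acads lost its call.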
